A study of Mus musculus and Rattus norvegicus with 32 samples.

Results

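The genes described serve fatty acid uptake, lipid storage and release, or the switch from glucose to fat as fuel, or act beside these. Angptl4 encodes a secreted protein that shuts down lipoprotein lipase, and Vnn1 an enzyme that splits a breakdown product of coenzyme A. The 9 genes are Fabp1, Cd36, Lpl, Plin2, Angptl4, Vnn1, Mgll, Slc27a2 and Pdk4. They were taken by name: every probe set (a group of probes on the array that reads 1 transcript) whose single annotated gene symbol was 1 of these names belonged to the group, whatever its values. All 9 genes were on the mouse array, with 16 probe sets, and 7 were on the rat array, with 11 probe sets, so 27 of 21162 probe sets were read in all. For Angptl4 and Vnn1 the rule gave mouse probe sets only, so neither is analysed here in rat. No probe set was filtered out and none of the 27 had a missing value.

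Long-chain fatty acids reach the liver in blood, enter through membrane proteins such as CD36 and the transport protein encoded by Slc27a2, and are bound in the cytosol by the protein encoded by Fabp1. Surplus fatty acid is kept as triglyceride in droplets coated by the protein encoded by Plin2, and lipases such as the one encoded by Mgll release it again. Many genes of this route are known in rodent liver as targets of PPAR alpha, a nuclear receptor that senses fatty acids and binds DNA together with RXR, and acid metabolites of trichloroethylene are known to activate that receptor.

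Trichloroethylene (TCE) is a chlorinated solvent, and the study set out to compare its effect on liver transcripts between 2 rodent species. Per the labels, male B6C3F1 mice and male SD rats received 1500 mg/kg TCE in corn oil by gavage, either 1 time (single dose) or daily for 14 days (repeated doses), and oil animals received corn oil alone on the same schedule. The last dose was given 18 h before the liver was taken, and single-dose animals were then 8 weeks old and repeated-dose animals 10 weeks old. The 32 arrays formed 8 groups of 4: TCE and oil, for each species and schedule. Every animal, the oil animals included, thus received corn oil, itself a fat. Each deposited value is the ratio of a probe set to a median, that of the 4 arrays of oil animals with its species and schedule, so a value of 1 is that median. The values hold no signal level: levels of different genes cannot be set side by side, the presence of liver markers cannot be checked, and precision depends on how many arrays a group has. Whether each sample was a separate animal is not stated in the labels, and p-values here rest on sample-to-sample spread, which may be technical.

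To show the letters on which PPAR alpha and RXR are known to sit, the mouse sequence before the transcription start of the members was searched for a direct repeat of AGGTCA with 1 base of any kind between its copies, on either strand. RefSeq (GRCm38.p6) gave upstream sequence for 6 of the 9 members (Cd36, Fabp1, Mgll, Pdk4, Plin2 and Slc27a2), and the 250 bases before each start were read. The motif with at most 2 mismatches in its 12 fixed letters was found in 3 of them, and in 3.24% of all 32851 upstream stretches of that length; 0.484% held it with at most 1 mismatch. These 3 stretches are printed 5′ to 3′ on the strand of the gene, because they are the members with the closest letters, with the match in capitals. Fabp1 lies on the + strand at chr6:71199629-71199878, and its match, read on the opposite strand as AGGCCATAGGTCA, has 1 mismatch and begins 67 bases before the start. Cd36 lies on the − strand at chr5:17835897-17836146, and its match, AAGTCAGAGGCCA on the opposite strand, has 2 mismatches and begins 63 bases before the start. Plin2 lies on the − strand at chr4:86670060-86670309, and its match, AGGTCAGGGGTCC on the opposite strand, has 2 mismatches and begins 225 bases before the start.
Fabp1: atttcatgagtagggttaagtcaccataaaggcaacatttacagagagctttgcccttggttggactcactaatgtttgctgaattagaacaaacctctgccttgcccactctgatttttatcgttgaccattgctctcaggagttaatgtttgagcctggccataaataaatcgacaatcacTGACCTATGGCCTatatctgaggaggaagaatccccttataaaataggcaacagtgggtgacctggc
Cd36: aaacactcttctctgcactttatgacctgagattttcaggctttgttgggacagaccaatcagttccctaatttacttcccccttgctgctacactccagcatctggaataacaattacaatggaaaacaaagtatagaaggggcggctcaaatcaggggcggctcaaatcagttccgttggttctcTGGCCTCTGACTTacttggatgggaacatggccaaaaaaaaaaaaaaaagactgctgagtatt
Plin2: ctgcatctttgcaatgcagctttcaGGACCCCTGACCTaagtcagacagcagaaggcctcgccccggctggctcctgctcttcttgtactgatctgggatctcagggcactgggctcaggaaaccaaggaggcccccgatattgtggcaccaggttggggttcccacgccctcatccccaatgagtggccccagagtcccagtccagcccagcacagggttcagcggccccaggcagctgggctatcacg
In the upstream stretches of Mgll, Pdk4 and Slc27a2 these letters were not found with up to 2 mismatches. A match describes letters only, and no binding was measured here.

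Array-wide facts that touch the members are these. The 3′ over 5′ value of the Gapdh control, which grows as transcripts lose their 5′ ends, was above 1 (log2) on 10 arrays, of which 9 were TCE arrays. It averaged 1.51 ± 0.95 on mouse single-dose TCE arrays and -0.03 ± 0.17 on their oil arrays (SD, n = 4 each; exact permutation test, two-sided, p = 0.0571, where 0.0286 is the smallest possible). In rat after repeated doses it averaged 1.2 ± 0.78 on TCE arrays and 0.12 ± 0.33 on oil arrays (SD, n = 4 each; exact p = 0.0571). The Gapdh gap was smaller in mouse after repeated doses, at 1.04 ± 0.94 on TCE arrays and 0.25 ± 0.81 on oil arrays (exact p = 0.371). In rat after 1 dose it was also smaller, at 0.26 ± 1.14 and -0.04 ± 0.18 (exact p = 0.886). The same value of the beta-actin control averaged 0.74 ± 0.43 on mouse single-dose TCE arrays and -0.02 ± 0.12 on oil arrays (exact p = 0.0286). In mouse after repeated doses the actin value averaged 0.64 ± 0.39 and -0.08 ± 0.26 (exact p = 0.0571). In rat the exact p for actin was 0.857 after 1 dose and 0.229 after repeated doses. Leaving out the 10 arrays of high Gapdh value leaves 1 TCE array in each mouse schedule, so there the test takes the spread of a lone TCE array from the other groups.

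Markers of pancreas and skeletal muscle, tissues that are not liver, averaged 131 and 102 times the oil median on rat single-dose oil array 3. Pancreas markers also averaged 7.64 and 17.2 times on mouse single-dose TCE arrays 3 and 4, 7.42 times on oil array 3 of that schedule, and 4.64 times on mouse repeated-dose TCE array 1. Muscle markers averaged 6.27 times on mouse repeated-dose TCE array 4. Adipocyte markers averaged 4.69 times on rat repeated-dose TCE array 2. Of the 5 adipocyte markers measured in each species, 0 passed adjusted p 0.05 (limma) in any TCE comparison and 1 passed at unadjusted p under 0.05, Lipe in rat after 1 dose with a log2 change of -0.86. Over all 7 marker lists, 0 of 39 measured mouse markers were higher and 1, a hepatocyte marker, was lower after 1 dose. Of all mouse probe sets 4.16% were higher and 4.14% lower there. After repeated doses 2 mouse markers were higher and 5 lower, where 2.24% of all were higher and 8.48% lower. Of 37 in rat 0 passed after 1 dose (6 at unadjusted p under 0.05), where 1.72% of all passed and 19.2% had an unadjusted p under 0.05. After repeated doses 1 rat marker was higher and 1 lower, where 2.16% of all were higher and 0.652% lower. In mouse after repeated doses 2 of 6 hepatocyte markers, 2 of 9 macrophage markers and 1 of 5 endothelial markers were lower, and 1 of 6 stellate cell markers and 1 of 4 muscle markers were higher. The mean ratio of the hepatocyte markers there was 0.692 to 0.812 on TCE arrays and 0.851 to 1.19 on oil arrays, and that of the stellate cell markers 1.33 to 1.65 and 0.869 to 1.21. The single stellate cell markers went both ways, with log2 changes between -0.85 and 1.14 and a median of 0.31. In mouse after 1 dose the mean ratio of the macrophage markers was 0.665 to 0.798 on TCE arrays and 0.863 to 1.12 on oil arrays. That of the endothelial markers was 0.741 to 0.855 and 0.897 to 1.19. Of the 9 macrophage markers 0 passed adjusted p 0.05 and 5 had an unadjusted p under 0.05, as did 24.2% of all mouse probe sets. The part of these shifts in the members' changes was not tested. In whole-liver RNA, fewer cells of a type and less RNA per cell cannot be told apart.

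After 1 dose, mouse liver had higher Vnn1, Mgll and Angptl4 and lower Fabp1 under TCE. Mgll and Fabp1 each passed on 1 of 2 probe sets, and Angptl4 on 1 of 4. With quantile normalization 1 of these 4 calls remained, and Angptl4 was called in 5 of 16 alternatives. After repeated doses Vnn1 and Mgll were higher in mouse, and Mgll and Cd36 in rat. Mouse Mgll and rat Cd36 each passed there on 1 of 2 probe sets. With quantile normalization 1 of the 2 mouse calls and 0 of the 2 rat calls remained. Lpl, Plin2, Slc27a2 and Pdk4 passed the test in no TCE comparison. Calls are limma adjusted p-values under 0.05, with Benjamini-Hochberg adjustment over all probe sets of a species. In mouse after 1 dose 4 of the 16 probe sets passed (25.0%), 3 higher and 1 lower, where 8.3% of all mouse probe sets passed (4.16% higher and 4.14% lower) and 24.2% had an unadjusted p under 0.05. In mouse after repeated doses 2 of the 16 passed (12.5%), both higher, where 10.7% of all passed (2.24% higher and 8.48% lower) and 27.5% had an unadjusted p under 0.05. In rat after 1 dose 0 of the 11 passed, where 1.72% of all passed (1.21% higher and 0.503% lower), and 3 members had an unadjusted p under 0.05, as did 19.2% of all. In rat after repeated doses 2 of the 11 passed (18.2%), both higher, where 2.81% of all passed (2.16% higher and 0.652% lower) and 18.9% had an unadjusted p under 0.05. The shares in mouse after repeated doses lie close to each other, and all of these counts are small.

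The median log2 change of the members, beside that of all probe sets, was 0.00 against -0.09 in mouse after 1 dose and 0.27 against -0.15 in mouse after repeated doses. In rat it was 0.42 against 0.14 after 1 dose and 0.17 against 0.04 after repeated doses. The shift of all mouse probe sets after repeated doses and of all rat probe sets after 1 dose exceeded 0.1, so a change of that size is no more than the whole array moved. With arrays centred on their medians, the higher calls made up 67.0% of all mouse single-dose calls in place of 50.1%, 48.4% of the mouse repeated-dose calls in place of 20.9%, and 41.8% of the rat single-dose calls in place of 70.7%. Each member that passed kept its direction under that centring.

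**Figure D1:**
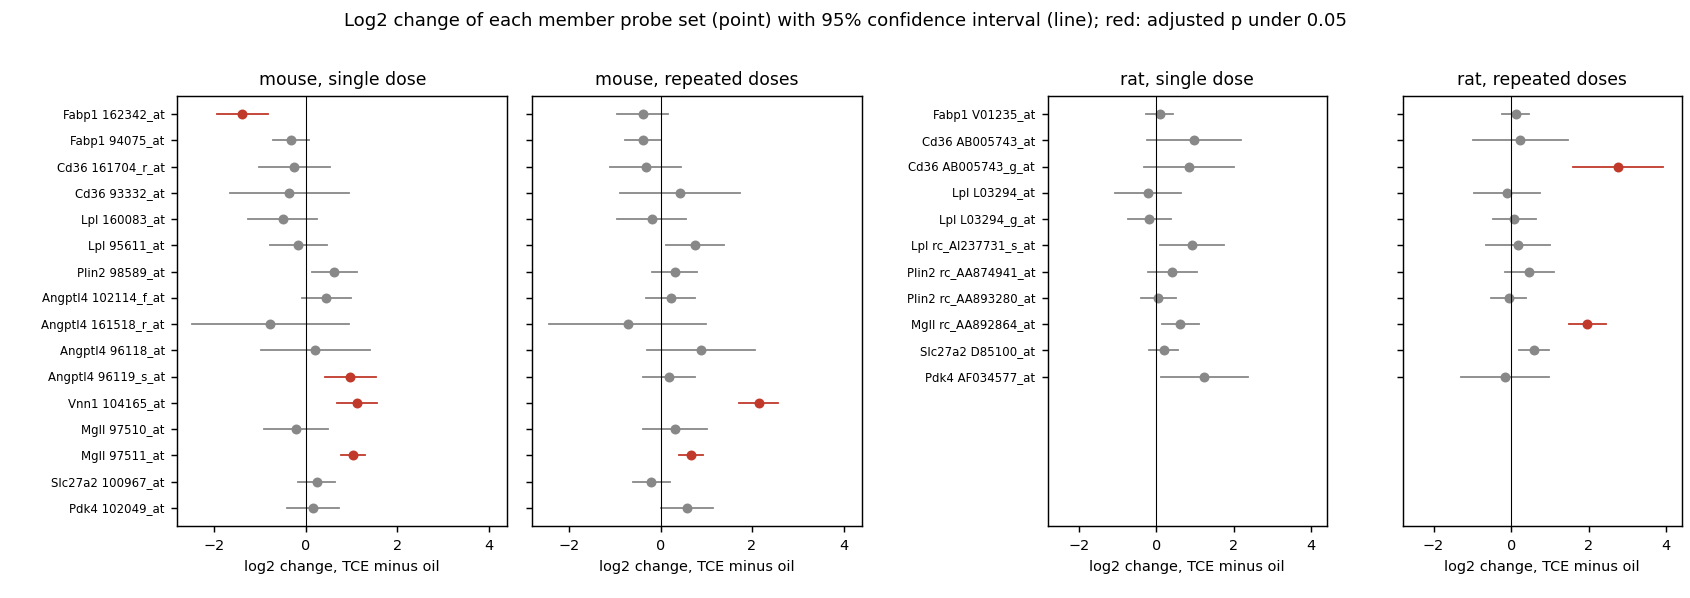
Log2 change (TCE minus oil, horizontal axis) of every member probe set in mouse and rat, after a single dose and after repeated doses; points are fitted changes, lines their 95% confidence intervals, and red marks an adjusted p under 0.05 (limma). Of the points in red, those of the repeated-dose comparisons for Vnn1 in mouse (2.14) and for Mgll and Cd36 in rat (1.97 and 2.76) lie farthest to the right, and Fabp1 162342_at in mouse after a single dose (-1.38) lies farthest to the left.

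Among the uptake genes, Cd36 encodes the scavenger receptor that takes up long-chain fatty acids at the cell surface. On rat probe set AB005743_g_at it read 16.4, 15.7, 1.99 and 10.0 times the oil median on the repeated-dose TCE arrays, against 0.989, 2.59, 1.01 and 0.927 on the oil arrays. TCE arrays 1, 2 and 4 were far above every oil array, but TCE array 3 lay below oil array 2, so the groups overlapped. Cd36 rose by a log2 change of 2.76 ± 0.54 (SE, n = 4 and 4; limma adjusted p = 0.0145), a 6.79-fold difference of geometric means. The adjusted p lay between 0.000185 and 0.102 over 15 alternatives. The filter on the noisiest 40% of probe sets is not among them, because it removed this probe set. The call was lost with quantile normalization (2.36, adjusted p = 0.0955) and with only the compared groups in the model (adjusted p = 0.102). It was also lost without TCE array 2 (2.47, adjusted p = 0.0504), on which adipocyte markers were high, and without oil array 1 (2.65, adjusted p = 0.0522). TCE array 3, the lowest, had a Gapdh 3′ over 5′ value of 2.07, while TCE array 4, at 1.60, read 10.0. Without the arrays above 1 the change was 3.69 (adjusted p = 0.00156).

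The second rat probe set of Cd36, AB005743_at, did not follow. It read 1.93, 1.64, 0.288 and 1.35 on the repeated-dose TCE arrays and 0.832, 1.17, 1.26 and 0.520 on the oil arrays, a log2 change of 0.24 ± 0.57 (SE, n = 4 and 4; limma adjusted p = 0.868). The groups overlapped, and TCE array 3 was again the lowest. Over the 16 rat arrays the pair of probe sets had a Pearson correlation of 0.42, which describes arrays that share treatment and scaling.

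After 1 dose, rat Cd36 on AB005743_g_at read 1.61, 2.52, 1.85 and 1.38 on TCE arrays, against 0.882, 1.03, 0.966 and 1.13 on oil arrays. All 4 TCE arrays lay above all 4 oil arrays, as did those of 8.79% of all rat probe sets, yet the log2 change of 0.84 ± 0.54 (SE, n = 4 and 4) had an adjusted p of 0.411 (limma). AB005743_at changed by 0.98 ± 0.57 (adjusted p = 0.372), with overlapping groups. In mouse neither Cd36 probe set passed: 161704_r_at changed by -0.24 after 1 dose and -0.32 after repeated doses, and 93332_at by -0.36 and 0.42 (log2, adjusted p between 0.610 and 0.776). The mouse pair had a correlation of -0.14 over 16 arrays, so they did not read alike.

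Another 5 rat probe sets were annotated with Cd36 together with Cd36l1, a former symbol of a related scavenger receptor gene, and so fell outside the rule. After repeated doses 3 of these 5 passed as higher, with log2 changes of 2.28 ± 0.44 (adjusted p = 0.0132), 2.56 ± 0.36 (0.00218) and 2.43 ± 0.44 (0.00985) on AF072411_g_at, rc_AA925752_at and rc_AA946368_at (SE, n = 4 and 4; limma). Of rc_AA925752_at the TCE arrays read 5.47, 8.48, 3.57 and 6.04, against 0.650, 1.25, 1.37 and 0.751 on the oil arrays. No TCE array overlapped the oil arrays here, array 3 included. The other 2, AF072411_at and rc_AA799326_s_at, changed by 3.40 ± 0.98 (adjusted p = 0.0728) and 3.08 ± 0.91 (0.0761). After 1 dose 0 of the 5 passed, with AF072411_at at 3.49 ± 0.98 (adjusted p = 0.0836) and the other 4 between 0.13 and 1.40. Which of the 2 genes these probe sets read was not tested.

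**Figure D2:**
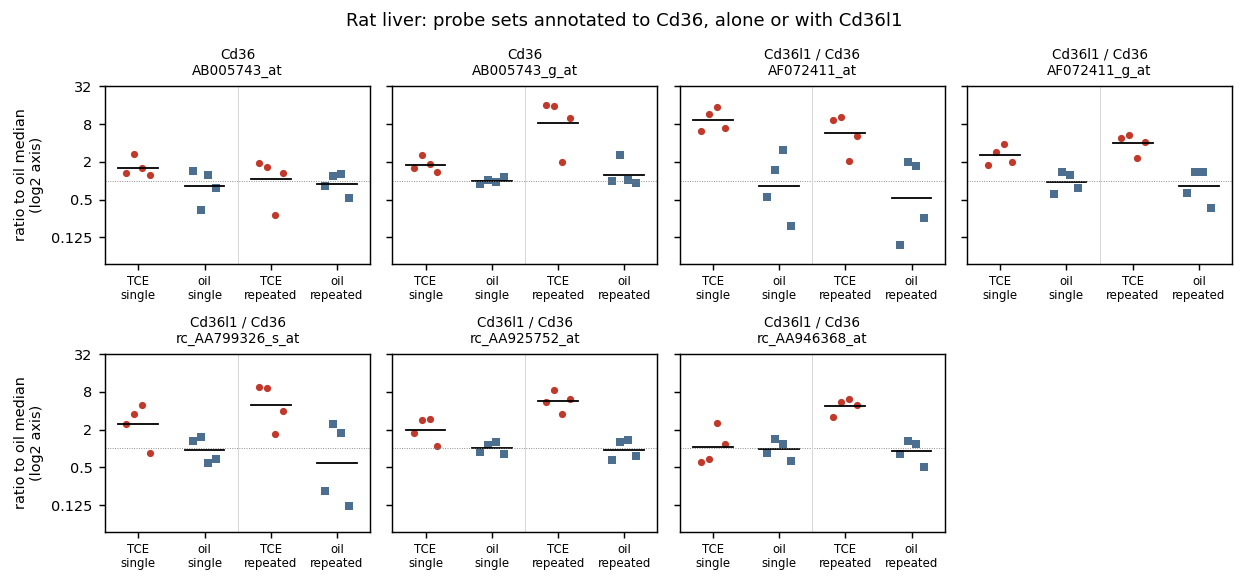
Ratio to the oil median (vertical axis, log2 scale) of the 2 rat probe sets named for Cd36 alone and the 5 named for Cd36 and Cd36l1, on each array; red circles are TCE arrays, blue squares oil arrays and black bars geometric means, with single-dose groups left of repeated-dose groups. On AB005743_g_at the repeated-dose TCE arrays reach 16.4 with 1 array at 1.99, while on AB005743_at they lie between 0.288 and 1.93.

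Slc27a2 encodes a fatty acid transport protein that also joins very long-chain fatty acids to coenzyme A. In rat after repeated doses it read 1.52, 1.65, 1.12 and 1.92 on TCE arrays and 0.939, 1.06, 1.17 and 0.895 on oil arrays. TCE arrays 1, 2 and 4 were above every oil array, and TCE array 3 was not. The log2 change of 0.59 ± 0.18 (SE, n = 4 and 4) did not pass (limma adjusted p = 0.0800). It passed in 3 of 16 alternatives, among them leaving out TCE array 3, the lowest (0.74, adjusted p = 0.0294). The Gapdh value was 2.07 on that array, but also 1.60 on TCE array 4, which read highest. The part of RNA quality in the Slc27a2 reading was not tested. After 1 dose the rat change was 0.19 (adjusted p = 0.586), and in mouse it was 0.24 after 1 dose (0.485) and -0.20 after repeated doses (0.534), all with overlapping groups.

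Fabp1 encodes the liver fatty acid-binding protein, one of the most abundant proteins of the hepatocyte cytosol. On mouse probe set 162342_at it read 0.366, 0.310, 0.475 and 0.442 on the single-dose TCE arrays, against 0.946, 1.16, 0.990 and 1.01 on the oil arrays. All 4 TCE arrays lay below all 4 oil arrays, as did those of 9.62% of all mouse probe sets. Fabp1 fell by 1.38 on the log2 scale (SE 0.26, n = 4 and 4; limma adjusted p = 0.00672), to 0.384 of the geometric mean of the oil arrays. The call was lost with quantile normalization (-1.10, adjusted p = 0.10) and without the arrays of high Gapdh value (-1.72, adjusted p = 0.111), over 16 alternatives with adjusted p between 0.000922 and 0.111. On 94075_at, which stood for the gene by its smaller spread, the single-dose TCE arrays read 0.884, 0.639, 1.04 and 0.827 and the oil arrays 0.920, 1.30, 1.08 and 0.892, a log2 change of -0.31 ± 0.18 (adjusted p = 0.324). There the groups overlapped, so the pair of probe sets gave unlike sizes for the same gene, with a correlation of 0.54 over 16 arrays.

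After repeated doses mouse Fabp1 changed by -0.39 on both probe sets and passed on neither (adjusted p = 0.365 on 162342_at and 0.183 on 94075_at). On 162342_at the TCE arrays read 0.470, 0.585, 0.642 and 1.17, against 1.02, 0.594, 1.02 and 0.982 on the oil arrays. TCE array 4 lay above every oil array and oil array 2 stood apart as low. Rat Fabp1 on its probe set V01235_at did not pass, with log2 changes of 0.09 ± 0.16 after 1 dose and 0.11 ± 0.16 after repeated doses (adjusted p = 0.800 and 0.756). The 95% intervals of these rat changes ran between -0.25 and 0.43 after 1 dose and between -0.23 and 0.45 after repeated doses. On the single-dose TCE arrays 1 to 4 of mouse the Gapdh values were 1.99, 0.09, 1.84 and 2.13, and the part of RNA quality in the Fabp1 reading was not tested.

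The wider lists below give each gene by its probe set with the smallest spread within groups, and named genes are those past adjusted p 0.05 (limma). That choice itself favours a small p-value, and other probe sets and alternatives are not given for these genes. With quantile normalization few calls remained over all probe sets: 59 and 7 in mouse after 1 dose and repeated doses, and 2 and 7 in rat. The uptake and activation list held 14 further genes, among them the acyl-CoA synthetases that trap fatty acids in the cell. In mouse 0 of 11 measured genes were higher and 1 lower after 1 dose, Slc27a5, a bile acid and fatty acid coenzyme A ligase (log2 change -0.88 ± 0.21, adjusted p = 0.0198). After repeated doses 1 was higher, Got2 (0.57 ± 0.16, adjusted p = 0.0347), the mitochondrial aspartate aminotransferase, which also binds fatty acids at the membrane. In rat 0 of 12 passed after 1 dose and 2 were higher after repeated doses, the acyl-CoA synthetases Acsl4 (1.33 ± 0.22, adjusted p = 0.00664) and Acsl1 (0.71 ± 0.16, adjusted p = 0.0279). The list's median log2 change was -0.40, 0.02, -0.25 and -0.00 in mouse single, mouse repeated, rat single and rat repeated comparisons.

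Lpl encodes lipoprotein lipase, which frees fatty acids from circulating triglyceride at the vessel wall, mainly outside the adult liver. No Lpl probe set passed. In mouse after repeated doses 95611_at read 1.01, 1.65, 2.02 and 1.81 on TCE arrays and 1.26, 1.29, 0.625 and 0.740 on oil arrays. TCE arrays 2 to 4 lay above every oil array and TCE array 1 did not, and the log2 change was 0.76 ± 0.29 (SE, n = 4 and 4; limma adjusted p = 0.110). The second mouse probe set, 160083_at, changed by -0.50 after 1 dose and -0.19 after repeated doses (adjusted p = 0.421 and 0.766).

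In rat the 3 Lpl probe sets disagreed after 1 dose. On rc_AI237731_s_at the TCE arrays read 1.96, 1.42, 1.54 and 1.97 and the oil arrays 0.969, 1.03, 1.38 and 0.486. All 4 TCE arrays lay above all 4 oil arrays, as did those of 8.79% of all rat probe sets, but the log2 change of 0.91 ± 0.39 did not pass (adjusted p = 0.214). Oil array 3, with the muscle and pancreas markers, gave the highest oil reading, and without it the change was 1.12 (adjusted p = 0.142). L03294_at and L03294_g_at changed by -0.21 and -0.18 after 1 dose (adjusted p = 0.803 and 0.741), and after repeated doses the 3 probe sets lay between -0.11 and 0.17.

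Angptl4 encodes a secreted protein that shuts down lipoprotein lipase. On mouse probe set 96119_s_at it read 1.54, 3.34, 1.77 and 1.94 on the single-dose TCE arrays, against 0.988, 1.01, 1.5 and 0.772 on the oil arrays. All 4 TCE arrays lay above all 4 oil arrays, as did those of 7.96% of all mouse probe sets, with TCE array 1 only just above oil array 3. Angptl4 rose by a log2 change of 0.98 ± 0.26 (SE, n = 4 and 4; limma adjusted p = 0.0346). The call was lost when any of TCE arrays 2, 3 or 4 or oil arrays 1, 2 or 4 was left out (log2 change between 0.75 and 1.16 and adjusted p between 0.0287 and 0.0934 over the 8 arrays). It was kept in 5 of 16 alternatives (0.75 to 1.69, adjusted p between 0.0086 and 0.362), and was lost also with quantile normalization (0.82, 0.362), with only the compared groups (0.0916), with the replicate block (0.0613), with the Gapdh value in the model (1.26, 0.0627) and without the arrays of high Gapdh value (1.69, 0.182).

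The other 3 Angptl4 probe sets did not pass after 1 dose. On 102114_f_at, which followed 96119_s_at with a correlation of 0.89 over the 16 mouse arrays, the change was 0.45 ± 0.25 (adjusted p = 0.290). On 161518_r_at and 96118_at it was -0.77 and 0.21 (adjusted p = 0.608 and 0.862), and these had correlations between -0.47 and 0.14 with the others. After repeated doses 96119_s_at read 1.24, 1.14, 1.08 and 1.37 on TCE arrays and 1.09, 0.838, 1.5 and 0.912 on oil arrays, a log2 change of 0.19 ± 0.26 (adjusted p = 0.687). The groups overlapped, and no Angptl4 probe set passed after repeated doses.

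Of the other lipoprotein lipolysis genes, 0 of 6 measured in mouse were higher and 2 were lower after 1 dose, Lrp1, an uptake receptor for remnant lipoproteins (-0.65 ± 0.17, adjusted p = 0.0322), and Apoc2, the cofactor that lipoprotein lipase needs (-0.49 ± 0.13, adjusted p = 0.0375). After repeated doses 1 was lower, Lrp1 again (-0.69 ± 0.17, adjusted p = 0.0216). In rat 0 of 4 passed in either schedule under limma, and 0 of them had an unadjusted p under 0.05.

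**Figure D3:**
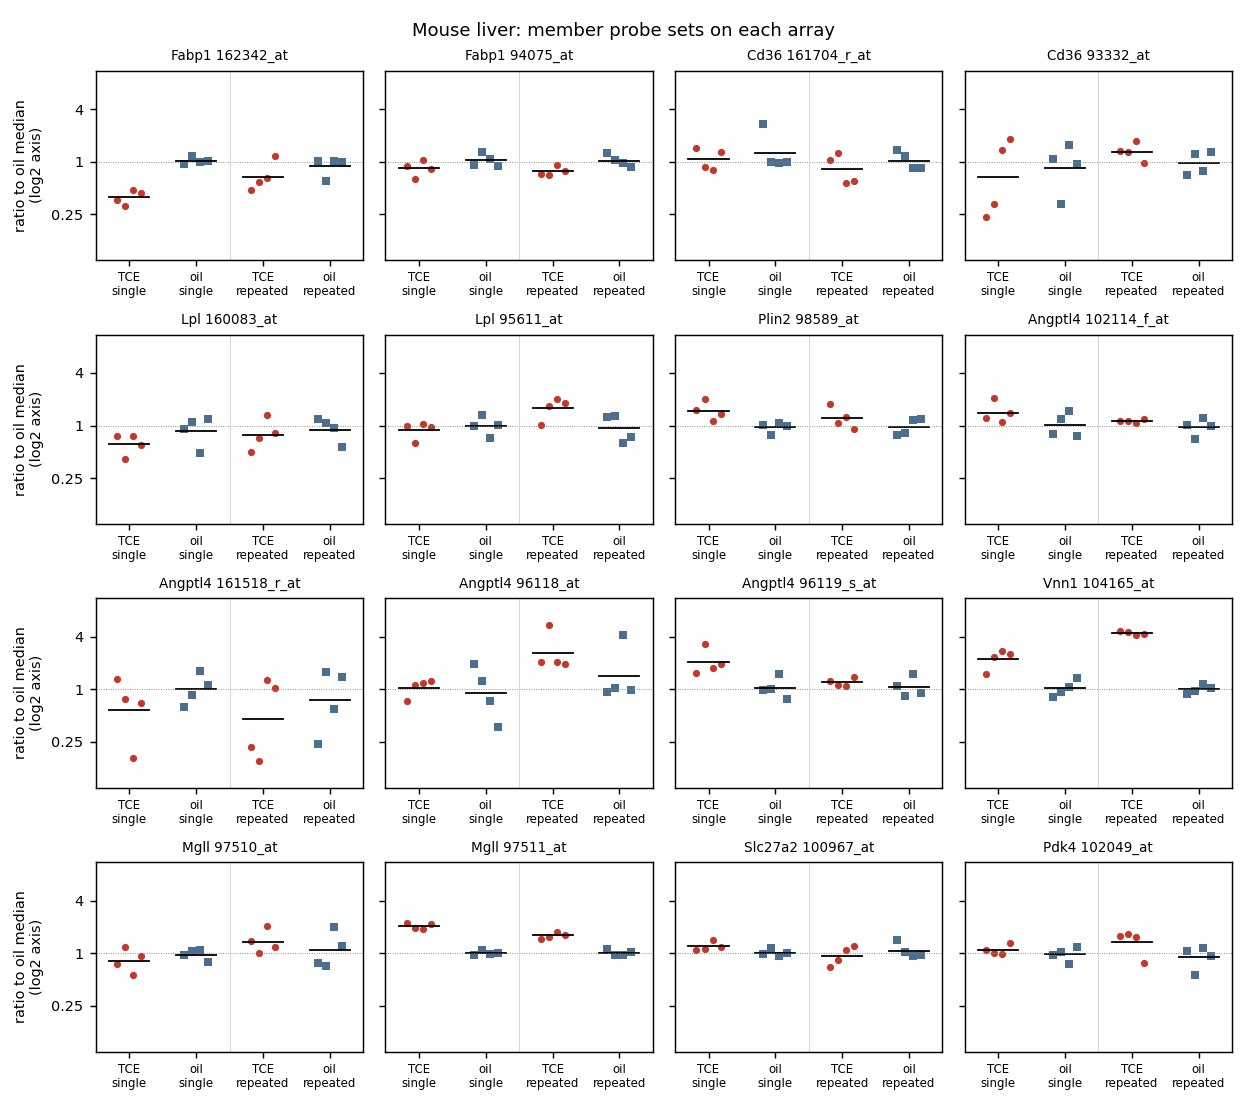
Ratio to the oil median (vertical axis, log2 scale) of the 16 mouse member probe sets on each array; red circles are TCE arrays, blue squares oil arrays and black bars geometric means, with single-dose groups left of repeated-dose groups. Vnn1 lies between 4.20 and 4.67 on the repeated-dose TCE arrays and between 1.48 and 2.78 on the single-dose TCE arrays, and Fabp1 162342_at between 0.310 and 0.475 on the single-dose TCE arrays.

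Among the storage genes, Plin2 encodes the coat protein of liver lipid droplets. In mouse after 1 dose it read 1.5, 2.00, 1.13 and 1.37 on TCE arrays and 1.01, 0.779, 1.06 and 0.991 on oil arrays. All 4 TCE arrays lay above all 4 oil arrays, as did those of 7.96% of all mouse probe sets. The log2 change of 0.62 ± 0.23 (SE, n = 4 and 4) did not pass (limma adjusted p = 0.110). With the Gapdh value in the model it was 1.12 (adjusted p = 0.0140; over all alternatives adjusted p lay between 0.0140 and 0.414). After repeated doses the mouse change was 0.31 (adjusted p = 0.423), and the rat changes lay between -0.06 and 0.47 over 2 probe sets and both schedules (adjusted p of at least 0.409).

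Mgll encodes monoacylglycerol lipase, which completes the breakdown of triglyceride. On mouse probe set 97511_at it read 2.24, 1.97, 1.90 and 2.15 on the single-dose TCE arrays, against 0.951, 1.09, 0.991 and 1.01 on the oil arrays. After repeated doses it read 1.48, 1.53, 1.77 and 1.63 on TCE arrays and 1.11, 0.948, 0.961 and 1.04 on oil arrays. In both schedules all 4 TCE arrays lay above all 4 oil arrays, with little spread within a group. Of all mouse probe sets, 7.96% after 1 dose and 4.6% after repeated doses were higher without overlap. Mgll rose by 1.03 ± 0.12 after 1 dose (adjusted p = 0.000374) and by 0.66 ± 0.12 after repeated doses (adjusted p = 0.00593; log2, SE, n = 4 and 4, limma). Without the arrays of high Gapdh value, which leaves 1 TCE array in each schedule, the calls were lost (0.97, adjusted p = 0.124, and 0.59, adjusted p = 0.230), and the repeated-dose call also with quantile normalization (0.62, adjusted p = 0.180) and with only the compared groups (adjusted p = 0.0588).

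The second mouse probe set of Mgll, 97510_at, did not follow, with a correlation of -0.08 with 97511_at over 16 arrays. It read 0.750, 1.19, 0.567 and 0.922 on the single-dose TCE arrays and 0.946, 1.05, 1.08 and 0.788 on the oil arrays (log2 change -0.22 ± 0.33, adjusted p = 0.739). After repeated doses it changed by 0.31 ± 0.33 (adjusted p = 0.577). The groups overlapped in both schedules, so the mouse result for Mgll rests on 1 of 2 probe sets.

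In rat Mgll had 1 probe set, rc_AA892864_at. After repeated doses it read 3.73, 4.51, 4.06 and 3.87 on TCE arrays, against 0.926, 1.25, 1.07 and 0.900 on oil arrays. The groups were far apart. Mgll rose by a log2 change of 1.97 ± 0.22 (SE, n = 4 and 4; limma adjusted p = 0.000414), a 3.92-fold difference, and was the only one of the 11 rat member probe sets whose repeated-dose groups did not overlap, against 7.52% of all rat probe sets that were higher without overlap. The call was kept in 15 of 16 alternatives and lost with quantile normalization (1.52, adjusted p = 0.0512). After 1 dose it read 1.42, 1.55, 1.51 and 1.75 on TCE arrays and 1.53, 1.21, 0.705 and 0.788 on oil arrays, a change of 0.62 ± 0.22 that did not pass (adjusted p = 0.151).

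Of the other lipid hydrolysis genes, 1 of 7 in mouse was higher after 1 dose, Lipa, the lysosomal acid lipase (0.88 ± 0.19, adjusted p = 0.0116), and 0 of 7 passed after repeated doses under limma. In rat 0 of 3 passed after 1 dose and 1 was higher after repeated doses, Ces1d, a carboxylesterase that acts on triglyceride (1.31 ± 0.32, adjusted p = 0.0436). Of 11 triglyceride synthesis and droplet genes in mouse, 1 was higher and 2 were lower after 1 dose. The higher one was Cidec, a droplet fusion protein (1.92 ± 0.53, adjusted p = 0.0403), and the lower ones were Agpat1, an acyltransferase of triglyceride synthesis (-1.01 ± 0.20, adjusted p = 0.00891), and Mttp, which loads lipid onto very low density lipoprotein (-0.91 ± 0.25, adjusted p = 0.0410). After repeated doses 0 of the 11 were higher and 3 lower, Mttp (-1.5 ± 0.25, adjusted p = 0.00388), Agpat1 (-0.74 ± 0.20, adjusted p = 0.0327) and Cideb, a droplet-associated protein of the liver (-0.39 ± 0.11, adjusted p = 0.0401). In rat 0 of 5 passed in either schedule.

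Pdk4 encodes the kinase that switches off pyruvate dehydrogenase, so that a cell burns fat and spares glucose. It passed in no comparison. In rat after 1 dose it read 2.89, 3.90, 3.64 and 0.876 on TCE arrays and 0.857, 1.14, 1.77 and 0.659 on oil arrays. TCE arrays 1 to 3 lay above every oil array and TCE array 4, with a Gapdh value of 1.90, lay among them. The log2 change was 1.25 ± 0.53 (SE, n = 4 and 4; limma adjusted p = 0.215), 1.53 with the Gapdh value in the model (adjusted p = 0.0299) and 1.5 without oil array 3 (adjusted p = 0.150), over all alternatives with adjusted p between 0.0299 and 0.631.

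After repeated doses rat Pdk4 read 1.15, 0.880, 0.337 and 0.758 on TCE arrays and 0.957, 1.15, 1.04 and 0.353 on oil arrays, a log2 change of -0.16 ± 0.53 (adjusted p = 0.907). The groups overlapped, and 1 array on each side was low. In mouse after repeated doses it read 1.60, 1.65, 1.54 and 0.784 on TCE arrays and 1.06, 0.566, 1.15 and 0.939 on oil arrays, a change of 0.57 ± 0.27 (adjusted p = 0.178). TCE array 4 was the exception, as the lowest TCE reading. Without it the change was 0.83, the largest over the 8 arrays left out in turn (0.35 to 0.83, limma adjusted p between 0.0458 and 0.423). The mean of the muscle markers was high on that array, and the part of this in the Pdk4 reading was not tested. After 1 dose the mouse change was 0.16 (adjusted p = 0.765).

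The wider fuel-choice list held 20 genes. In mouse 0 of 11 measured were higher and 1 lower in each schedule, Pklr, the liver pyruvate kinase of glycolysis (-1.24 ± 0.29 after 1 dose, adjusted p = 0.0190, and -1.21 ± 0.29 after repeated doses, adjusted p = 0.0194). In rat 0 of 13 passed in either schedule, with median log2 changes of 0.29 and 0.54 beside 0.14 and 0.04 over all probe sets.

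Vnn1 encodes pantetheinase, which splits pantetheine, a breakdown product of coenzyme A, into cysteamine and pantothenate. In mouse it read 1.48, 2.38, 2.78 and 2.56 on the single-dose TCE arrays, against 0.822, 0.936, 1.06 and 1.36 on the oil arrays. After repeated doses it read 4.67, 4.59, 4.20 and 4.36 on TCE arrays and 0.887, 0.965, 1.16 and 1.03 on oil arrays. The TCE arrays lay above all oil arrays in both schedules, by a narrow margin after 1 dose and by a wide one after repeated doses. So did those of 7.96% of all mouse probe sets after 1 dose and 4.6% after repeated doses. Vnn1 rose by 1.12 ± 0.20 (adjusted p = 0.00533) after 1 dose and by 2.14 ± 0.20 (adjusted p = 0.000154) after repeated doses (log2, SE, n = 4 and 4, limma), or 2.18-fold and 4.42-fold. By its repeated-dose change it ranked 33 from the top of the 12422 mouse probe sets. The single-dose call was lost with quantile normalization (0.93, adjusted p = 0.133) and without the arrays of high Gapdh value (1.21, adjusted p = 0.171), while the repeated-dose call was kept in 16 of 16 alternatives (1.95 to 2.30, adjusted p between 2.88e-06 and 0.0499). The highest of these p-values is that without the arrays of high Gapdh value, which rests on 1 TCE array with the spread taken from the other groups.

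Of the pantetheine and coenzyme A genes, 0 of 2 in mouse passed after 1 dose, and after repeated doses 1 was lower, Vnn3, a paralogue of Vnn1 (-0.80 ± 0.21, adjusted p = 0.0283). Among 8 regulating receptors and cofactors in mouse, 1 was higher and 1 lower after 1 dose, Ppara, the fatty acid receptor itself (0.56 ± 0.14, adjusted p = 0.0271), and Rxra, its partner (-0.54 ± 0.15, adjusted p = 0.0379), and 0 passed after repeated doses. Among 7 in rat 0 passed after 1 dose and 1 was higher after repeated doses, Pparg, known as the fat cell form of the receptor (2.35 ± 0.55, adjusted p = 0.0339). Over all wider lists together, 3 of 56 measured mouse genes were higher and 7 lower after 1 dose, 1 and 6 after repeated doses, and in rat 0 of 45 passed after 1 dose and 4 were higher and 0 lower after repeated doses. Over all probe sets 8.3%, 10.7%, 1.72% and 2.81% passed in that order. At an unadjusted p under 0.05 the counts were 18 of 56, 12 of 56, 15 of 45 and 16 of 45, where all probe sets gave 24.2%, 27.5%, 19.2% and 18.9%.

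**Figure D4:**
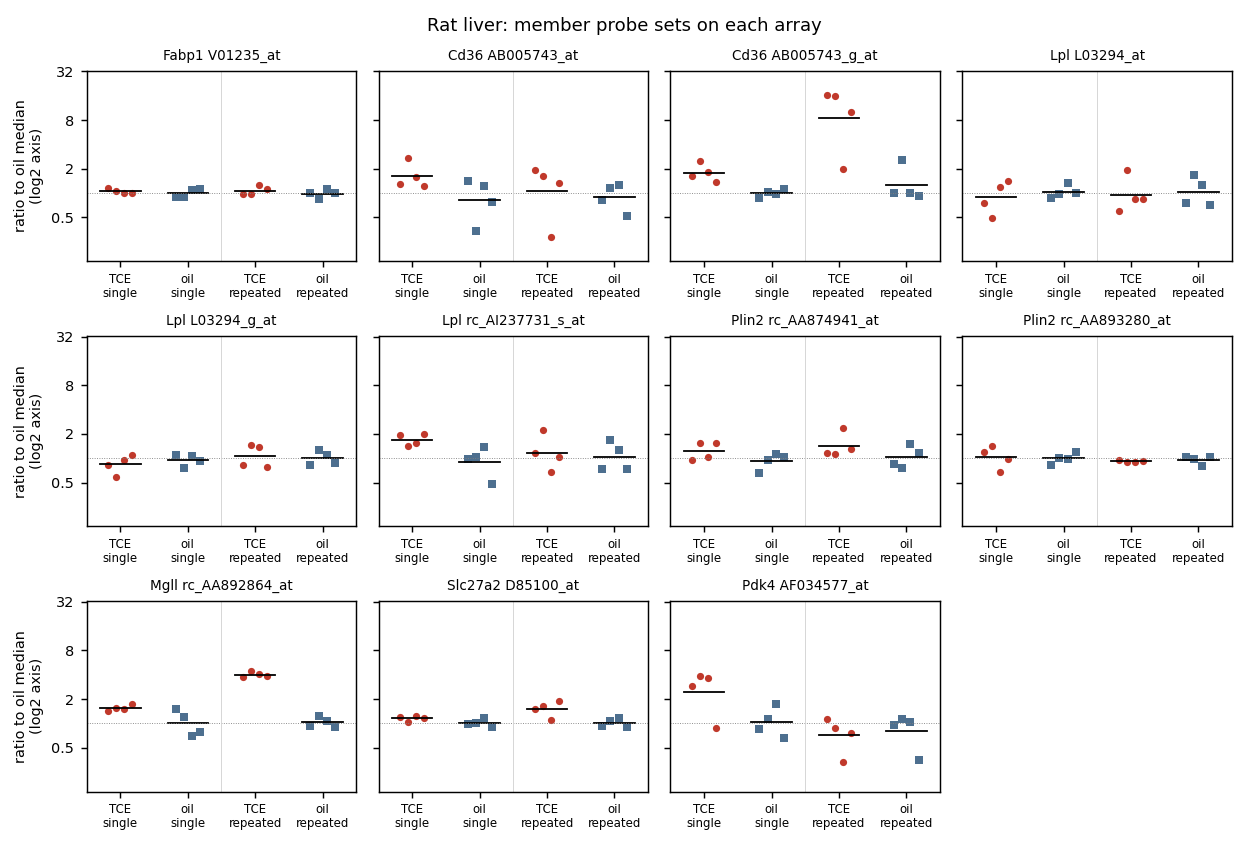
Ratio to the oil median (vertical axis, log2 scale) of the 11 rat member probe sets on each array; red circles are TCE arrays, blue squares oil arrays and black bars geometric means, with single-dose groups left of repeated-dose groups. Mgll lies between 3.73 and 4.51 on the repeated-dose TCE arrays, and Pdk4 between 0.876 and 3.90 on the single-dose TCE arrays.

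The difference between the effects of repeated doses and of 1 dose was tested directly. In mouse 0 of the 16 member probe sets passed, where 0.877% of all passed, and 4 had an unadjusted p under 0.05, as did 18.8% of all. Vnn1 had the largest difference among these, 1.02 ± 0.29 higher after repeated doses (log2, SE; limma adjusted p = 0.0821), followed by Fabp1 162342_at at 0.99 ± 0.37 (adjusted p = 0.166), Lpl 95611_at at 0.91 ± 0.42 (adjusted p = 0.249) and Mgll 97511_at at -0.37 ± 0.17 (adjusted p = 0.261). Angptl4 96119_s_at differed by -0.79 ± 0.37 (adjusted p = 0.267), with an unadjusted p of 0.0504. The 95% interval for Vnn1 ran between 0.41 and 1.63. In rat 0 of the 11 passed, where 0% of all passed (818 probe sets, 9.36%, had an unadjusted p under 0.05), and 2 members had an unadjusted p under 0.05. These were Mgll, whose effect was 1.35 ± 0.32 larger after repeated doses (adjusted p = 0.329), and Cd36 AB005743_g_at at 1.92 ± 0.76 (adjusted p = 0.488). For no member is a difference between the schedules shown.

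The mouse effect was set against the rat effect on the 3056 genes read on both arrays, each by the probe set with the smallest spread within groups, with 7 members among them. Each species had its own array type and probe sets, so a difference between species cannot be told apart from one between arrays. After 1 dose 0 of the 7 passed, where 4.22% of all genes passed, and 0 had an unadjusted p under 0.05 (limma), where 21.1% of all had one. The 95% intervals were wide: the difference was -1.09 for Cd36 (between -2.45 and 0.28), -1.08 for Pdk4 (between -2.32 and 0.16), 0.57 for Plin2 (between -0.06 and 1.19) and 0.40 for Mgll (between -0.10 and 0.91).

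After repeated doses 3 of the 7 passed (42.9%), all with the lower effect in mouse, where 10.5% of all genes passed in either direction and 8.51% with the lower effect in mouse (2% with the higher one), and 26.5% had an unadjusted p under 0.05. Cd36 had an effect of -0.32 in mouse, on 161704_r_at, and 2.76 in rat, on AB005743_g_at, a difference of -3.08 ± 0.67 (log2, SE; limma adjusted p = 0.00328). Mgll had 0.66 in mouse and 1.97 in rat, a difference of -1.31 ± 0.24 (adjusted p = 0.000973). Slc27a2 had -0.20 in mouse and 0.59 in rat, a difference of -0.79 ± 0.25 (adjusted p = 0.0391). The median difference of the 7 was -0.50 beside -0.23 over all genes.

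These species differences did not all hold equally. With the mean of all probe sets of a gene, Cd36 differed by -1.45 (adjusted p = 0.164), so its call rests on the choice of probe set. With quantile normalization Cd36 differed by -2.49 (adjusted p = 0.120), and the filter on the noisiest 40% left it out. Slc27a2 lost its call with arrays centred on their medians (-0.59, adjusted p = 0.130) and with quantile normalization (-0.45, adjusted p = 0.624), with the replicate block (adjusted p = 0.0786) and when any of 9 single arrays was left out (between -0.94 and -0.66 over all arrays, adjusted p up to 0.0948). Mgll was called in 22 of 24 alternatives and lost the call with quantile normalization (-0.90, adjusted p = 0.290) and without the arrays of high Gapdh value (-1.41, adjusted p = 0.0621).

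The genes whose log2 values ran most like those of a member that passed, over the 16 arrays of a species, are given as a description, since the arrays share treatment, scaling and RNA quality. For mouse Vnn1 these were Ehhadh, a peroxisomal fatty acid oxidation enzyme (Pearson r = 0.91), and Aldh3a2, a fatty aldehyde dehydrogenase (0.91). For mouse Mgll 97511_at they were Jkamp (0.97) and Mark2 (0.96), for Fabp1 162342_at Pipox (0.89) and Tnxb (0.86), and for Angptl4 96119_s_at Wdr45 (0.83) and Vrk3 (0.80). For rat Cd36 AB005743_g_at they were Cyp4a1, a fatty acid omega-hydroxylase (0.91), and Me1, the cytosolic malic enzyme (0.89), and for rat Mgll Plcb1 (0.98) and Acsl1 (0.95).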

How the data were processed

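Liver RNA of mouse and rat was read on 1 array type per species. The deposited values are ratios to a median, that of the 4 arrays from oil animals matched in species and schedule, which was found from the values (the oil median lay within 0.0005 of 1). Per the submitters' processing notes the upstream software was MAS5, with a version not given in the sources used here. Control probe sets (66 in mouse, 59 in rat) were left out.

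Ratios were taken to log2 with no pseudocount or filter on low values, and fitted with limma 3.58.1 (lmFit and eBayes) in R 4.3.3, with a term for each group and all 16 arrays of the species. P-values were adjusted by Benjamini-Hochberg over 12422 mouse and 8740 rat probe sets. Schedule differences were contrasts of the same model, and species differences used 32 arrays and 3056 shared genes. The scripts were tested on simulated data. Plots used matplotlib 3.10.9 (Python 3.11.15).

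Members and wider lists were chosen with earlier results of these data known. All members were named on every probe set; other genes were named where past adjusted p 0.05, and likeness took the 2 genes with the highest correlation. Over 16 pairs of same-numbered arrays the correlation of deviations from group means lay between -0.17 and 0.08, with 0 above 0.1. These correlations show no sign of pairing by number but cannot exclude it, because they rest on means of 4 arrays. Alternatives were quantile normalization, centring, only the groups compared, array weights, the replicate block, the Gapdh value as covariate or as a filter, a filter on the noisiest 40% of probe sets, the mean of probe sets for species differences, and leaving out each array.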

Additional observations from a re-analysis of the deposited data

Results flagged for a closer look

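Of 108 groups of 4 arrays examined, 7 held 1 array far from the other 3, which is close to the share of about 5% that chance gives. The values are ratios to the oil median. Pdk4 in mouse after repeated doses was 0.784 on TCE array 4 and 1.54 to 1.65 on the others. Angptl4 96118_at was 5.50 on mouse repeated-dose TCE array 2, with 1.94 to 2.07 on the others, and 4.23 on oil array 3, with 0.934 to 1.03 on the others. Cd36 161704_r_at was 2.73 on mouse single-dose oil array 1 and 0.958 to 1.001 on the others. Fabp1 162342_at was 0.594 on mouse repeated-dose oil array 2 and 0.982 to 1.02 on the others. In rat after repeated doses, Cd36 AB005743_g_at was 2.59 on oil array 2 (0.927 to 1.01 on the others) and Pdk4 was 0.353 on oil array 4 (0.957 to 1.15 on the others).

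The measured effect of repeated doses differed between mouse and rat for Cd36, Mgll and Slc27a2 (mouse minus rat, log2, limma). Species and array type cannot be told apart in this comparison. The differences were -3.08 (adjusted p = 0.00328), -1.31 (adjusted p = 0.000973) and -0.79 (adjusted p = 0.0391). All of these calls were lost with quantile normalization (adjusted p = 0.120, 0.290 and 0.624). Cd36 also lost its call when its probe sets were averaged (-1.45, adjusted p = 0.164). Cd36 was called in 21 of 23 alternatives, Mgll in 22 of 24 and Slc27a2 in 12 of 24. Outside the rule for members, 3 rat probe sets annotated with both Cd36l1 and Cd36 were higher after repeated doses: AF072411_g_at by 2.28, rc_AA925752_at by 2.56 and rc_AA946368_at by 2.43 (log2).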

How the results depend on the processing

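Over all results and the alternatives other than leaving out an array, 508 values kept their direction and side of the threshold (or, for counts, stayed within 1.5 times), 23 turned in direction, 23 lost their call and 9 gained one. The rest were moved counts. Vnn1 in mouse after repeated doses was called in 16 of 16 alternatives (1 of which rests on a single TCE array) and rat Mgll after repeated doses in 15 of 16, while Angptl4 in mouse after 1 dose was called in 5 of 16. Limits are 4 arrays a group, ratios without a signal level, Gapdh values above 1 on 9 TCE arrays and 1 oil array, and probe sets of the same gene that disagree. The cause of each change below was not tested, except that leaving out arrays leaves fewer samples.

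The count of all probe sets called in mouse after 1 dose (1031) was 59 with quantile normalization, 1550 with array weights, 278 with the Gapdh value as covariate and 18 without arrays of high Gapdh value, and 519 to 1187 leaving out 1 array. In mouse after repeated doses (1331) it was 7 with quantile normalization, 388 with only the groups compared, 58 without arrays of high Gapdh value, and 687 to 1271 leaving out 1 array. In rat after 1 dose (150) it was 2 with quantile normalization, 69 with only the groups compared, 417 with array weights, 59 with the replicate block, 256 with the covariate, 29 without arrays of high Gapdh value, 441 without the noisiest probe sets, and 22 to 128 leaving out 1 array. In rat after repeated doses (246) it was 7, 106, 434, 72, 133 and 526 with quantile normalization, only the groups compared, array weights, the covariate, arrays of high Gapdh value left out and the noisiest probe sets left out, and 100 to 316 leaving out 1 array. For the schedule difference in mouse (109) it was 0 with quantile normalization, 222 with array weights, 8 with the replicate block, 183 with the covariate, 0 without arrays of high Gapdh value, 672 without the noisiest probe sets, and 21 to 118 leaving out 1 array. In rat (0) it was 1 without arrays of high Gapdh value, 5 without the noisiest probe sets, and 0 to 1 leaving out 1 array. For the species difference after 1 dose (129 genes) it was 7 with quantile normalization, 263 with array weights, 36 without arrays of high Gapdh value, 200 without the noisiest probe sets, and 81 to 181 leaving out 1 array. After repeated doses (321 genes) it was 6 with quantile normalization and 160 without arrays of high Gapdh value. Under centring the share of higher calls was 38.5% in place of 23.9% for the mouse schedule difference, and 74.8% in place of 35.7% and 39.5% in place of 19.0% for the species differences after 1 dose and repeated doses.

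The count of members called in mouse after 1 dose (4) was 1 with quantile normalization, 0 without arrays of high Gapdh value, and 3 to 4 leaving out 1 array. In mouse after repeated doses (2) it was 1 with quantile normalization, 1 with only the groups compared, 1 without arrays of high Gapdh value, and 2 to 3 leaving out 1 array. In rat after 1 dose (0) it was 1 with the covariate, Pdk4. In rat after repeated doses (2) it was 0 with quantile normalization, 1 with only the groups compared, and 1 to 3 leaving out 1 array. The mouse schedule difference (0) had 1 without the noisiest probe sets, Vnn1 (adjusted p = 0.0293). The species difference after 1 dose (0) had 1 with the covariate, Plin2 (1.04, adjusted p = 0.0433), and 1 with the mean of probe sets, Fabp1 (-0.93, adjusted p = 0.0328). After repeated doses (3) it had 0 with quantile normalization and 2 to 3 leaving out 1 array. Without the noisiest probe sets, Plin2 in mouse after 1 dose (adjusted p = 0.0474), Lpl 95611_at in mouse after repeated doses (0.0484) and rat Slc27a2 after repeated doses (0.0416) passed, the last also with array weights (0.67, adjusted p = 0.0326). The filter on noise removes probe sets by their spread, which the test also uses, so a call gained with it is not independent evidence. Whether the replicate numbers pair the samples is not settled: 5 of 16 arrays correlated best with their own number. The replicate block ended the calls of Angptl4 in mouse after 1 dose (limma adjusted p = 0.0613) and of the species difference of Slc27a2 (0.0786). It changed no other member's call.

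Directions that turned concerned members that did not pass in either setting (log2 values). With quantile normalization these were mouse repeated-dose Lpl 160083_at (0.10) and rat single-dose Plin2 rc_AA893280_at (-0.12) and Fabp1 (-0.027), and with centring the same rat probe sets (-0.069 and -0.040). With the covariate they were mouse single-dose Slc27a2 (-0.074) and Mgll 97510_at (0.19), rat repeated-dose Pdk4 (0.86), Lpl L03294_g_at (-0.14) and Plin2 rc_AA893280_at (0.042), the species difference after 1 dose for Lpl (-0.52) and Slc27a2 (-0.29), and after repeated doses for Pdk4 (-0.30). Without arrays of high Gapdh value they were mouse single-dose Mgll 97510_at (0.30), mouse repeated-dose Cd36 161704_r_at (0.17), rat repeated-dose Lpl L03294_at (0.057), Pdk4 (0.34) and Fabp1 (-0.039), and the species difference after 1 dose for Lpl (-0.35) and Slc27a2 (-0.040). Array weights turned rat repeated-dose Lpl L03294_at (0.0099), and the mean of probe sets turned the species difference after 1 dose for Lpl (-0.50) and Mgll (-0.22).

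Leaving out 1 array, the ranges that crossed 0 were in mouse after 1 dose -0.22 to 0.58 for Angptl4 96118_at, -0.39 to 0.12 for Cd36 161704_r_at, -0.85 to 0.15 for Cd36 93332_at and -0.31 to 0.010 for Lpl 95611_at, and after repeated doses -0.44 to 0.027 for Lpl 160083_at. In rat after 1 dose they were -0.44 to 0.071 for Lpl L03294_at, -0.31 to 0.0023 for Lpl L03294_g_at and -0.10 to 0.26 for Plin2 rc_AA893280_at. In rat after repeated doses they were -0.054 to 0.86 for Cd36 AB005743_at, -0.46 to 0.12, -0.072 to 0.23 and -0.14 to 0.44 for Lpl L03294_at, L03294_g_at and rc_AI237731_s_at, and -0.55 to 0.20 for Pdk4. For the species difference after 1 dose they were -0.16 to 0.19 for Lpl and -0.033 to 0.10 for Slc27a2.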
